A study of Mus musculus with 15 samples.

Results

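The transcripts of 9 type I interferon-inducible and nucleic acid sensor genes were followed in mouse spleen after whole-body ionizing radiation (WBIR) and after radiation combined with a burn (RCI). The genes were taken by symbol from a list whose rule uses no measured value, although the list was drawn up with earlier results of these data known. They were the cytosolic RNA sensors *Ifih1* and *Ddx58*, the HIN-200 family gene *Ifi204*, the transcription factor *Irf7*, and the effector genes *Bst2*, *Ifi35*, *Ifit2*, *Mx1* and *Irgm1*. All 9 were found among the 561 genes of the nCounter Mouse Immunology Panel, of which 547 are endogenous and 14 are reference genes. All 9 also passed the filter of a mean of at least 20 counts, as did 426 endogenous genes in all. With samples scaled to the reference genes, *Ifi204*, *Ifih1*, *Irf7*, *Bst2* and *Ifi35* were higher in all 4 irradiated groups than in Sham, from 1.78-fold to 21.3-fold. With TMM scaling the log2 fold changes of these 5 genes were larger, from 1.34 to 4.80. *Ddx58*, *Ifit2* and *Irgm1* passed the test in none of those comparisons when samples were scaled to the reference genes. *Mx1* was lower in RCI, a call that held in 19 of 25 alternative fits. Those that lost it included TMM scaling (adjusted p = 0.0744), the fit without Sham replicate 2 (adjusted p = 0.272) and the fit without RCI replicate 3 (adjusted p = 0.0880).

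Cells sense misplaced or foreign nucleic acid with receptors in the cytosol and in endosomes, and these receptors pass the signal through adaptors and kinases to interferon regulatory factors that switch on type I interferon. Secreted interferon binds its receptor of *Ifnar1* and *Ifnar2* on the same or neighbouring cells, and the kinases Jak1 and Tyk2 then activate transcription factors that bind the interferon-stimulated response element (ISRE) of target genes. The genes described here are known to respond to interferon, and in the spleen both macrophages and lymphocytes can carry this response.

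Female C57BL/6J mice of 6 to 8 weeks, wild type as far as the sources tell, gave the spleens. Sham mice had neither injury, WBIR mice received 9 Gy from a caesium irradiator, and RCI mice received a burn of 20% of the body surface and the same dose. The burn procedure also included tribromoethanol anaesthesia, shaving, injected morphine, Lactated Ringer's solution and morphine in the drinking water. By the study's methods, shams of the burn model went through it without burn or radiation. No such steps are listed for WBIR mice, so effects of these steps cannot be told apart from those of burn or radiation. The WBIR+MSC-EVs and RCI+MSC-EVs groups were given extracellular vesicles of cultured C57BL/6J bone marrow mesenchymal stem cells into a vein 72 hours after injury, whereas untreated mice were given vehicle (PBS for RCI by the labels, saline by the study's text). Spleens were taken 48 hours later, so no group with a burn alone and no Sham group with MSC-EVs was analysed here, and the burn was only seen on top of radiation. Each group had 3 samples, and the sources do not settle whether these are separate mice, so the p-values measure the spread between samples that may in part be technical. Red blood cells were lysed before RNA was isolated from the remaining spleen cells.

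Values are barcode counts, 1 count for each captured mRNA molecule, divided by a scale factor from the geometric mean of the 14 reference genes of that sample (scaled counts). Total counts were between 90127 in WBIR+MSC-EVs replicate 1 and 598872 in WBIR+MSC-EVs replicate 2. Reference genes themselves differed from Sham, with 7 of 14 in WBIR and 7 of 14 in RCI past a 2-fold difference, and the median log2 fold change (log2FC) of all tested genes against Sham lay between -0.74 and -0.45. With TMM scaling, which is computed over the endogenous genes, those medians moved up by 0.37 to 0.71, and results that turn on this choice are given under both. Sham replicate 2 stood apart, with a reference scale factor 0.559 of its TMM scale factor where the other 14 samples lay between 0.876 and 1.29. By reference-gene scaling RCI replicate 3, the sample at 1.29, had the lowest value of the 12 irradiated samples for 7 of the 9 genes. With TMM scaling it was no longer the lowest for *Ifih1* and *Ddx58*, at 628 and 626 where the lowest irradiated values were 513 and 610. B cell markers lay at a summed 16140 to 18000 scaled counts in Sham and at 687 to 1497 in the irradiated groups, and in such bulk samples fewer cells of a type and less RNA per cell cannot be told apart.

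The 2 RNA sensors gave different results. *Ifih1* encodes MDA5, which binds long double-stranded RNA, and *Ddx58* encodes RIG-I, which binds short RNA ends, and both are interferon-inducible. *Ifih1* counted 97.7, 218 and 128 scaled counts in the Sham samples. In WBIR it counted 588, 778 and 686, and in WBIR+MSC-EVs 680, 767 and 603. In RCI it counted 602, 710 and 487, and in RCI+MSC-EVs 650, 633 and 501. Every irradiated sample was therefore above every Sham sample, and the lowest irradiated value was 2.23 times the highest Sham value. The log2FC against Sham was 2.24 ± 0.28 (SE) in WBIR (adjusted p = 9.88e-06), 2.24 ± 0.28 in WBIR+MSC-EVs (adjusted p = 1.08e-05), 2.05 ± 0.28 in RCI (adjusted p = 2.09e-05) and 2.04 ± 0.28 in RCI+MSC-EVs (adjusted p = 2.55e-05). All 4 comparisons share the same 3 Sham samples.

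*Ddx58* counted 517, 894 and 592 in Sham, so that its Sham samples spanned much of the irradiated range. Its values were 640, 729 and 707 in WBIR, 577, 803 and 605 in WBIR+MSC-EVs, 641, 852 and 485 in RCI, and 728, 743 and 596 in RCI+MSC-EVs. No irradiated sample exceeded the highest Sham sample, which was Sham replicate 2. The log2FC lay between -0.01 ± 0.25 in RCI and 0.06 ± 0.25 in WBIR, with adjusted p between 0.851 and 0.982. Under TMM scaling the groups separated, since the Sham samples then counted 462, 499 and 519 and the 12 irradiated samples 610 to 888. The TMM log2FC was 0.73 in WBIR (adjusted p = 0.00171), 0.56 in WBIR+MSC-EVs (adjusted p = 0.00987), 0.47 in RCI (adjusted p = 0.0235) and 0.41 in RCI+MSC-EVs (adjusted p = 0.0430). Whether *Ddx58* rose thus depends on the scaling.

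The ratio of raw counts of both sensors within a sample needs no scaling, and since each gene keeps its own probe the ratio can be compared between samples although it says nothing of which transcript is more abundant. *Ifih1* over *Ddx58* was 0.189, 0.215 and 0.244 in Sham and 0.833 to 1.18 in the 12 irradiated samples. Without MSC-EVs the group means were 0.986 ± 0.075 (SD, n = 3) in WBIR and 0.925 ± 0.086 in RCI, and with MSC-EVs they were 1.04 ± 0.12 and 0.862 ± 0.027. *Ifih1* was thus higher relative to *Ddx58* in every irradiated sample whatever the scaling. These ratios were chosen after the values were seen and carry no test.

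**Figure D1:**
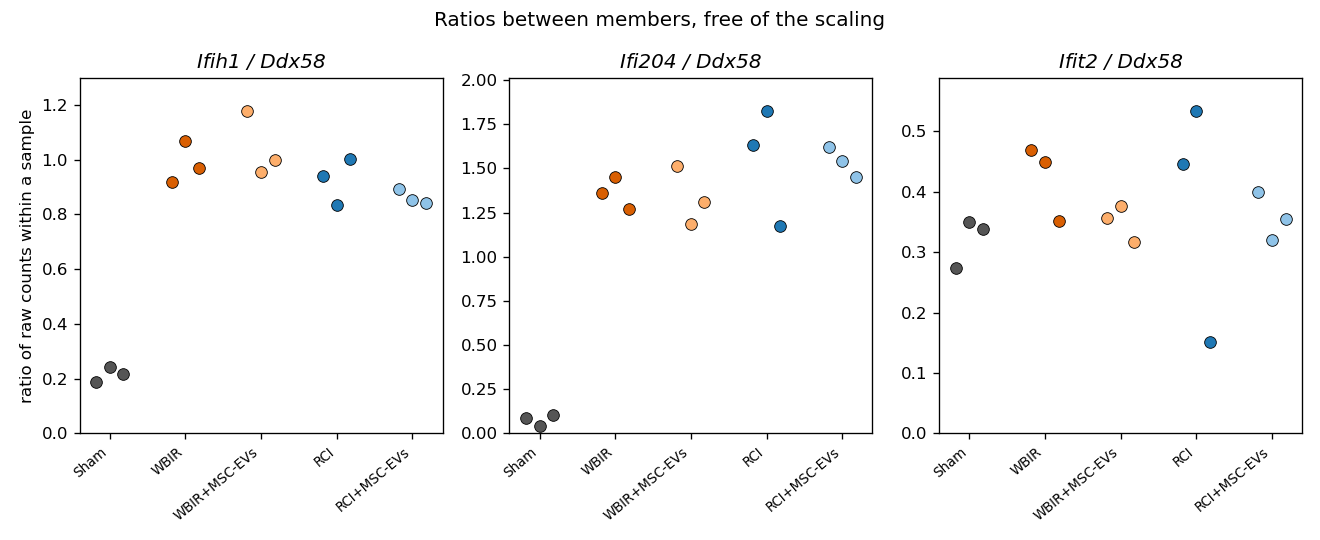
Ratio of raw counts of *Ifih1*, *Ifi204* and *Ifit2* to *Ddx58* within each sample (linear axes from 0), with 3 points per group. For *Ifih1* and *Ifi204* the 3 Sham points, at most 0.244 and 0.106, sit below all 12 irradiated points, whereas for *Ifit2* the Sham points, at most 0.351, lie just below those of WBIR, from 0.352, and overlap those of the other 3 groups, where RCI replicate 3 is the lowest at 0.151.

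The promoters of both sensor genes are shown because the genes differed in response while both windows hold an ISRE core, searched as GAAANNGAAA on both strands. Each window runs from 250 bases before to 50 bases after the RefSeq start of the gene in mouse build GRCm38.p6, is printed 5′ to 3′ on the strand of the gene, and has the ISRE core in capitals (on *Ddx58* the core lies on the opposite strand). *Ifih1* lies on the minus strand at chr2:62646206-62646505 and *Ddx58* on the minus strand at chr4:40239776-40240075.
Ifih1: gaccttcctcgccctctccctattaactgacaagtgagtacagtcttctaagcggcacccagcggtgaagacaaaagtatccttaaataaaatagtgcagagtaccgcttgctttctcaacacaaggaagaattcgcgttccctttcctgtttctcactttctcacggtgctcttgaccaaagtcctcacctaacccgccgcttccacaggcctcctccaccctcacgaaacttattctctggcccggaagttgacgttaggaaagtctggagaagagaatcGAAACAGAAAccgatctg
Ddx58: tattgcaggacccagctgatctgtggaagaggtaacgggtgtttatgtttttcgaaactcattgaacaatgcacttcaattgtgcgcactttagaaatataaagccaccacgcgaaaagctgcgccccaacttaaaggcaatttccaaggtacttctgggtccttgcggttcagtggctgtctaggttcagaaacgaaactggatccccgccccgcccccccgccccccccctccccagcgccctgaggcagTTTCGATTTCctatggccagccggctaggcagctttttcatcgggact
The match starts 32 bases after the start in *Ifih1* and 2 bases after it in *Ddx58*. Of 32851 promoter windows of this length, 3.44% hold the ISRE core. A match describes these letters and does not show that a factor binds there.

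*Ifi204* had the highest fold change of the 9 genes. It belongs to the HIN-200 family, whose members bind DNA and include sensors that signal to interferon production, and it is itself induced by interferon. Sham samples counted 44.7, 39.2 and 63.0. The irradiated samples counted 871, 1058 and 897 in WBIR, 874, 952 and 792 in WBIR+MSC-EVs, 1046, 1557 and 570 in RCI, and 1182, 1146 and 865 in RCI+MSC-EVs. The lowest irradiated value, in RCI replicate 3, was 9.05 times the highest Sham value. The log2FC was 4.24 ± 0.35 in WBIR (18.9-fold, adjusted p = 3.17e-07), 4.13 ± 0.35 in WBIR+MSC-EVs (17.5-fold, adjusted p = 4.23e-07), 4.40 ± 0.35 in RCI (21.1-fold, adjusted p = 3.43e-07) and 4.41 ± 0.35 in RCI+MSC-EVs (21.3-fold, adjusted p = 3.82e-07). Raw counts in Sham were 16 to 82, so counting error weighs more there than in the other groups. HIN-200 genes have close relatives, and cross-hybridisation of the probe was not assessed, so the identity of the counted transcript is uncertain to that extent.

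*Irf7* encodes the transcription factor that amplifies type I interferon production and is itself an interferon target. Sham samples counted 139, 208 and 119. WBIR samples counted 628, 720 and 629 and WBIR+MSC-EVs samples 512, 819 and 650. RCI samples counted 897, 1022 and 402 and RCI+MSC-EVs samples 913, 652 and 850. All 12 irradiated samples were above all Sham samples, the nearest being RCI replicate 3 at 1.93 times the highest Sham value. The log2FC was 2.10 ± 0.34 in WBIR (adjusted p = 8.57e-05), 2.11 ± 0.34 in WBIR+MSC-EVs (adjusted p = 8.88e-05), 2.33 ± 0.34 in RCI (adjusted p = 3.59e-05) and 2.39 ± 0.34 in RCI+MSC-EVs (adjusted p = 3.47e-05). *Irf3*, which encodes the constitutive partner of Irf7 in switching on interferon genes, fell in the same comparisons, by 2.23 on the log2 scale in WBIR (SE 0.38, adjusted p = 0.000160) and by 1.65 in RCI (SE 0.37, adjusted p = 0.00116). The raw-count ratio of *Irf7* to *Irf3* was 1.63, 2.02 and 2.27 in Sham and 15.8 to 63.4 in the irradiated samples, where *Irf3* itself counted few molecules, at a mean of 16.6 scaled counts in WBIR.

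Among the effector genes, *Bst2* and *Ifi35* rose in all 4 irradiated groups. *Bst2* encodes tetherin, a membrane protein that holds budding enveloped viruses at the cell surface. Sham samples counted 317, 301 and 214, whereas WBIR samples counted 973, 1113 and 1110 and RCI samples 1364, 1312 and 986. WBIR+MSC-EVs samples counted 815, 1230 and 994 and RCI+MSC-EVs samples 1209, 1032 and 1171. The groups did not overlap, and the log2FC was 1.94 ± 0.23 in WBIR (adjusted p = 5.57e-06), 1.87 ± 0.23 in WBIR+MSC-EVs (adjusted p = 8.43e-06), 2.14 ± 0.23 in RCI (adjusted p = 2.72e-06) and 2.04 ± 0.23 in RCI+MSC-EVs (adjusted p = 5.32e-06).

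*Ifi35* encodes an interferon-induced leucine zipper protein, and its change was smaller. With reference-gene scaling its replicates were also closer together. Sham samples counted 280.0, 304 and 286. The irradiated groups counted 510 to 551 in WBIR, 481 to 536 in WBIR+MSC-EVs, 499 to 650 in RCI and 584 to 604 in RCI+MSC-EVs. The lowest irradiated sample was 1.58 times the highest Sham sample. The log2FC was 0.88 ± 0.16 in WBIR (adjusted p = 0.000260), 0.83 ± 0.16 in WBIR+MSC-EVs (adjusted p = 0.000445), 1.01 ± 0.16 in RCI (adjusted p = 8.57e-05) and 1.04 ± 0.16 in RCI+MSC-EVs (adjusted p = 7.83e-05), while the median over all tested genes was -0.74, -0.61, -0.53 and -0.45 in the same order.

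**Figure D2:**
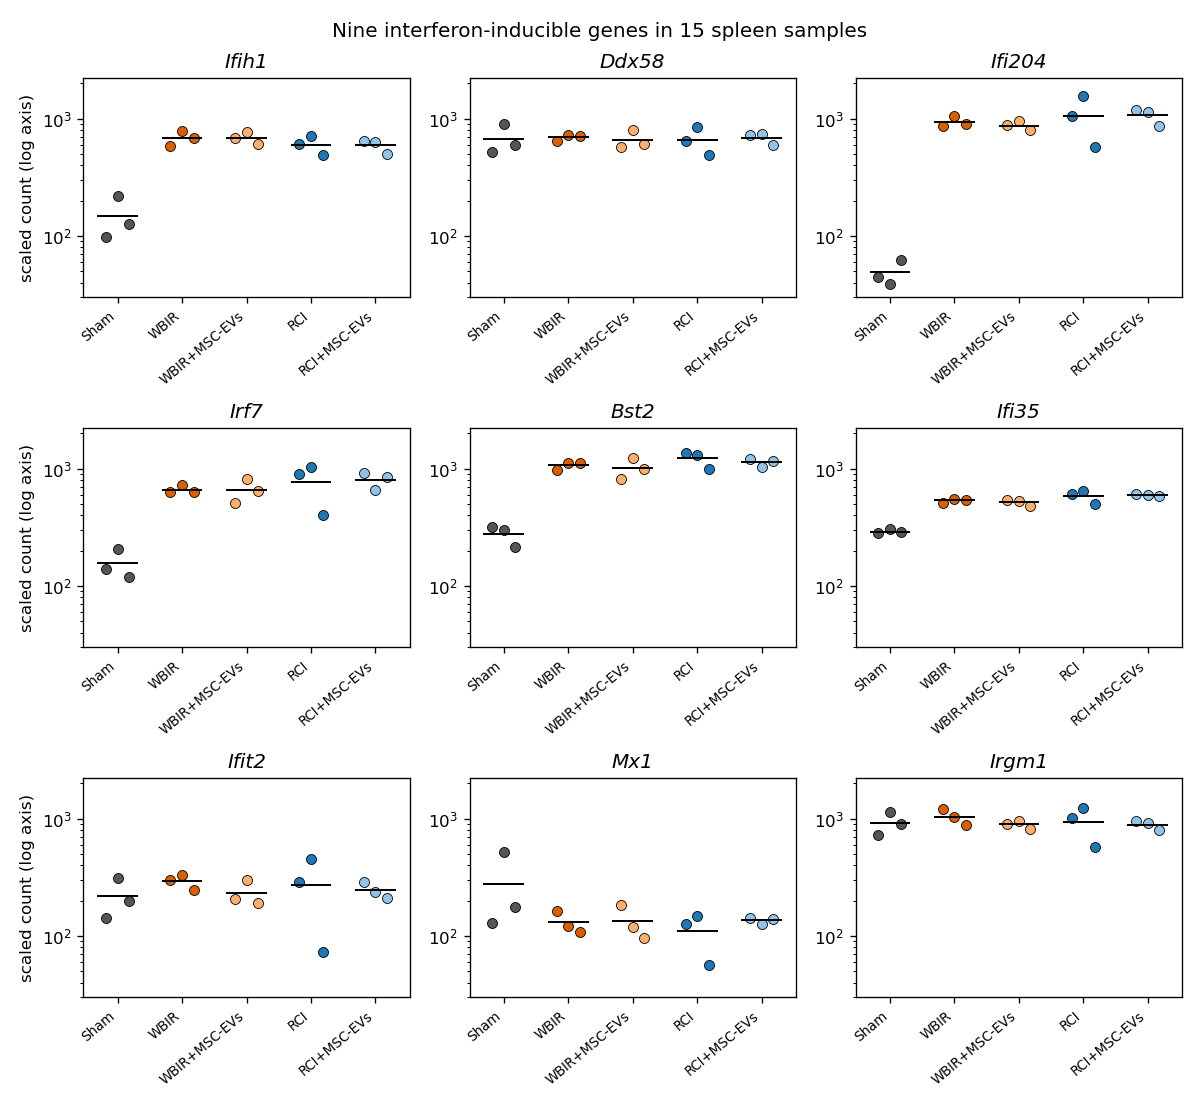
Counts scaled to the reference genes (log axis) of the 9 genes in each of the 15 samples, with a horizontal bar at the mean of each group of 3. For *Ifih1*, *Ifi204*, *Irf7*, *Bst2* and *Ifi35* all 12 irradiated samples lie above the 3 Sham samples, and for *Ddx58*, *Ifit2*, *Mx1* and *Irgm1* the groups overlap.

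*Ifit2*, *Irgm1* and *Mx1* did not follow this pattern. *Ifit2* encodes an RNA-binding protein that restrains viral translation and is among the genes that interferon induces early. Sham samples counted 142, 314 and 200 and WBIR samples 300, 328 and 249, and WBIR+MSC-EVs samples counted 206, 303 and 191. RCI samples counted 286, 456 and 73.4, a spread of 70.5% (coefficient of variation), and RCI+MSC-EVs samples 291, 238 and 212. The log2FC was 0.43 ± 0.48 in WBIR (adjusted p = 0.429) and 0.32 ± 0.48 in RCI (adjusted p = 0.553), with 95% intervals that reach from 0.646-fold to 2.82-fold in WBIR and from 0.598-fold to 2.61-fold in RCI. The result in RCI rests on RCI replicate 3, because without that sample the log2FC was 0.78 with an adjusted p of 0.0463. TMM scaling called *Ifit2* in WBIR alone, at a log2FC of 1.13 (adjusted p = 0.0224), and the difference between the injuries was not past the test.

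*Irgm1* encodes an immunity-related GTPase of autophagy and defence against intracellular microbes, which responds to interferon gamma as well as to type I interferon. It counted 720, 1142 and 907 in Sham and 570 to 1237 in the 12 irradiated samples, so the groups overlapped. The log2FC lay between -0.05 ± 0.27 in RCI+MSC-EVs and 0.17 ± 0.27 in WBIR, with adjusted p between 0.565 and 0.941. With TMM scaling it was 0.83 in WBIR (adjusted p = 0.00201), 0.51 in WBIR+MSC-EVs (adjusted p = 0.0357), 0.47 in RCI (adjusted p = 0.0466) and 0.30 in RCI+MSC-EVs (adjusted p = 0.197). *Irgm1* moved closely with *Ddx58*, and the ratio of their raw counts was 1.28 to 1.53 in Sham and 1.18 to 1.87 in the irradiated samples.

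*Mx1* encodes a dynamin-like GTPase that blocks influenza virus, and RefSeq lists the gene of the C57BL/6J reference as a transcribed pseudogene, the other 8 genes being listed as protein coding. Sham samples counted 130.0, 522 and 176. The irradiated groups counted 108 to 163 in WBIR, 96.8 to 183 in WBIR+MSC-EVs, 57.1 to 149 in RCI and 128 to 142 in RCI+MSC-EVs. The log2FC was -1.05 ± 0.47 in WBIR (adjusted p = 0.0601), -1.05 ± 0.48 in WBIR+MSC-EVs (adjusted p = 0.0628), -1.30 ± 0.47 in RCI (adjusted p = 0.0240) and -0.999 ± 0.471 in RCI+MSC-EVs (adjusted p = 0.0730). The fall called in RCI rests on Sham replicate 2, since without it the log2FC was -0.48 with an adjusted p of 0.272. Without RCI replicate 3 it was -0.98 with an adjusted p of 0.0880, and with TMM scaling -0.73 with an adjusted p of 0.0744. These were not the only alternatives that lost the call in RCI, which held in 19 of 25. DESeq2 called *Mx1* lower in all 4 comparisons.

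The promoters of *Bst2*, which rose, and *Irgm1*, which did not pass the test under reference-gene scaling, are shown because each holds a pair of overlapping ISRE cores. They are printed as for the sensor genes, *Bst2* from the minus strand at chr8:71537423-71537722 and *Irgm1* from the minus strand at chr11:48871371-48871670, with the overlapping cores in capitals.
Bst2: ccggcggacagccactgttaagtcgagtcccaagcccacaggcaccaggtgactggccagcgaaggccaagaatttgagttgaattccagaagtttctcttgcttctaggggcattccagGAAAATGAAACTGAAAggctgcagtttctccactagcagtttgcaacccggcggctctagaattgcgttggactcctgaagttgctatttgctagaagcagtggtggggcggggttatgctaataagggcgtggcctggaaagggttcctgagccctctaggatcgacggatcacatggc
Irgm1: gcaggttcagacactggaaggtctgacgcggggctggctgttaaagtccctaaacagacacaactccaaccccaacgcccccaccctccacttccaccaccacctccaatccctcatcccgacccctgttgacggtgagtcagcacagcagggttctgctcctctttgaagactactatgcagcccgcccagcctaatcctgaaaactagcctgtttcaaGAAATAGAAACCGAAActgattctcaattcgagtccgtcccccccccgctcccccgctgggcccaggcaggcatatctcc
The cores start 130 and 124 bases before the start in *Bst2* and 30 and 24 bases before it in *Irgm1*. RefSeq promoter windows were at hand for 7 of the 9 genes, with 8 windows in all because *Ifit2* has 2. Of these 7 genes 4 hold an ISRE core within a window, *Ifih1*, *Ddx58*, *Bst2* and *Irgm1*, beside 3.99% of all genes with a window. The gamma-activated site TTCNNNGAA, which reads the same on both strands, occurs in windows of *Bst2*, *Ifi35* and *Ifit2*, the last in 1 of its 2 windows. It is held by 8.3% of all windows and 9.55% of all genes with a window. Neither run of letters is in the window of *Irf7*. Cores were thus found both in genes that rose and in *Ddx58* and *Irgm1*, which did not pass the test under reference-gene scaling. With TMM scaling *Ddx58* was called higher in each comparison with Sham, and *Irgm1* in each but RCI+MSC-EVs.

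Counted together, 5 of the 9 genes were called higher and 0 lower in WBIR, where 21.6% of all tested genes were called higher and 46.9% lower. In WBIR+MSC-EVs 5 were higher and 0 lower (22.8% higher and 45.1% lower over all genes), in RCI 5 higher and 1 lower (26.5% and 43.0%), and in RCI+MSC-EVs 5 higher and 0 lower (23.9% and 41.3%). The count of 0 lower in 3 of these comparisons is by edgeR and limma, while DESeq2 called 1 lower, *Mx1*, in each, and at an unadjusted p under 0.05 edgeR also counted *Mx1* in WBIR and WBIR+MSC-EVs. The median log2FC of the 9 genes was 0.88, 0.83, 1.01 and 1.04 in the same order. The groups did not overlap for 5 of the 9 genes in each comparison, where 71.1%, 69.0%, 64.6% and 70.4% of all tested genes did not overlap, so the share of genes without overlap was not above that of the panel. With TMM scaling 8, 7, 7 and 6 of the 9 genes were called, all of them higher, beside 31.7%, 31.0%, 35.4% and 32.2% of all tested genes. *Ifi204*, *Ifih1*, *Irf7*, *Bst2* and *Ifi35* were called higher in all 4 comparisons under each of the 25 alternatives tried, which are refits of the same samples.

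**Figure D3:**
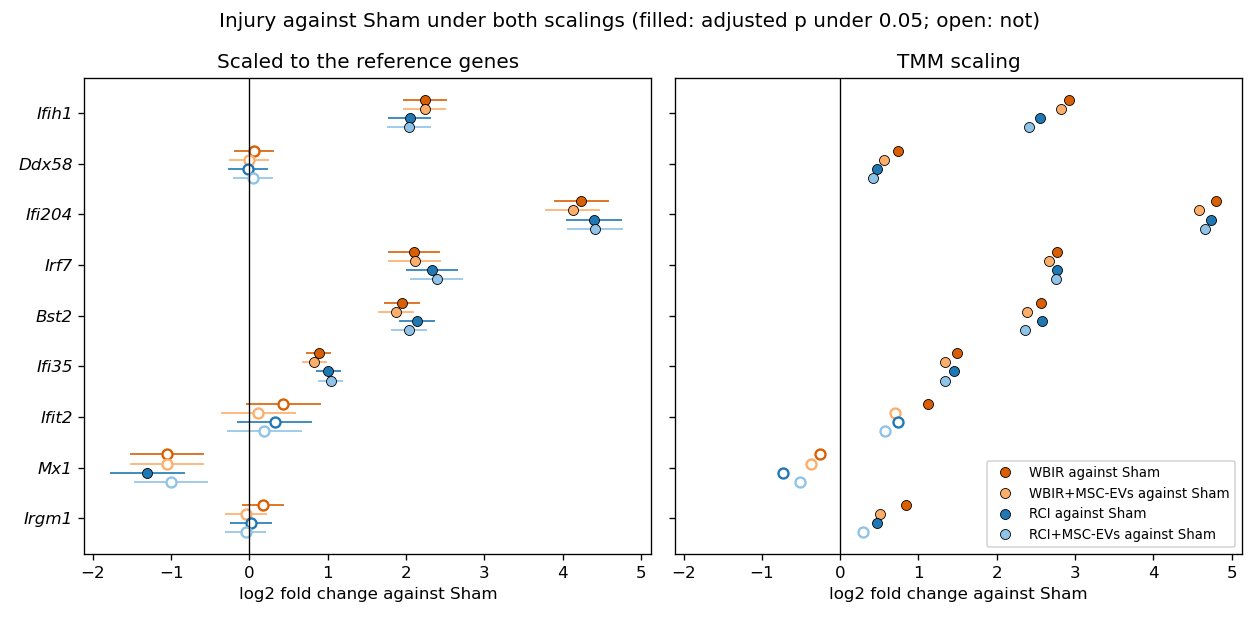
Log2 fold change of the 9 genes in the 4 irradiated groups against Sham with reference-gene scaling (left, bars are SE) and TMM scaling (right, no bars drawn), with filled points at an adjusted p under 0.05. *Ifi204* lies above 4 in every comparison under both scalings, *Ddx58* moves from about 0 on the left to 0.41 to 0.73 on the right, and *Mx1* lies below 0 on both sides.

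The other genes of the pathway were described by role, from lists chosen with earlier results of these data known. The 4 interferon genes on the panel, *Ifna1*, *Ifna2*, *Ifnb1* and *Ifng*, counted 1 to 16 raw counts in every sample and fell below the filter, so no ligand was tested and a difference was not detectable at this depth. Of the 8 tested receptor and signal carrier genes reported here, 3 were lower in WBIR and 3 in RCI. These were the receptor chain *Ifnar1* at -1.74 ± 0.24 in WBIR and -1.26 ± 0.24 in RCI, and the kinases *Jak1* at -1.38 ± 0.24 and -1.77 ± 0.24 and *Jak2* at -1.78 ± 0.21 and -1.43 ± 0.20. The median over these 8 genes was -0.49 in WBIR and -0.38 in RCI, beside -0.74 and -0.53 over all genes. With TMM scaling 2 were higher and 3 lower in WBIR, the higher ones being the other receptor chain *Ifnar2*, at a log2FC of 1.43 (adjusted p = 0.000581), and *Stat2*, at 1.14 (adjusted p = 0.00632), both singled out after their values were seen.

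Of 5 tested interferon regulatory factors other than *Irf7*, 0 were higher and 2 lower in WBIR and in RCI. These were *Irf3*, described above, and *Irf4*, a factor of activated lymphocytes and plasma cells, at -1.87 ± 0.34 in WBIR (adjusted p = 0.000223) and -1.49 ± 0.33 in RCI (adjusted p = 0.00106). By TMM scaling 1 of the 5, *Irf5*, was higher in both, and it was singled out after its values were seen. Of 12 tested adaptors, kinases and endosomal receptors of nucleic acid sensing, 3 were higher and 7 lower in WBIR and 3 higher and 6 lower in RCI, while TMM scaling gave 4 higher and 4 lower in WBIR and 4 higher and 5 lower in RCI. The endosomal RNA receptor *Tlr8* rose by a log2FC of 2.24 ± 0.52 in WBIR and 2.27 ± 0.53 in RCI, while the kinase gene *Ikbkb* was at -2.23 ± 0.37 and -1.63 ± 0.36 and the adaptor gene *Traf3* at -2.09 ± 0.32 and -1.85 ± 0.31. Of 11 other interferon-induced genes tested, 2 were higher and 4 lower in WBIR and 3 higher and 2 lower in RCI. The chemokine gene *Cxcl9* rose by 1.98 ± 0.50 and 2.29 ± 0.50, while *Ciita*, the master regulator of MHC class II genes and a gene of B cells, was at -3.76 ± 0.35 and -3.96 ± 0.35 and the peptide transporter *Tap1* at -1.85 ± 0.29 and -2.04 ± 0.29. By TMM scaling 6 of these 11 were higher and 2 lower in WBIR and 5 higher and 2 lower in RCI, so the balance of this list depends on the scaling.

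**Figure D4:**
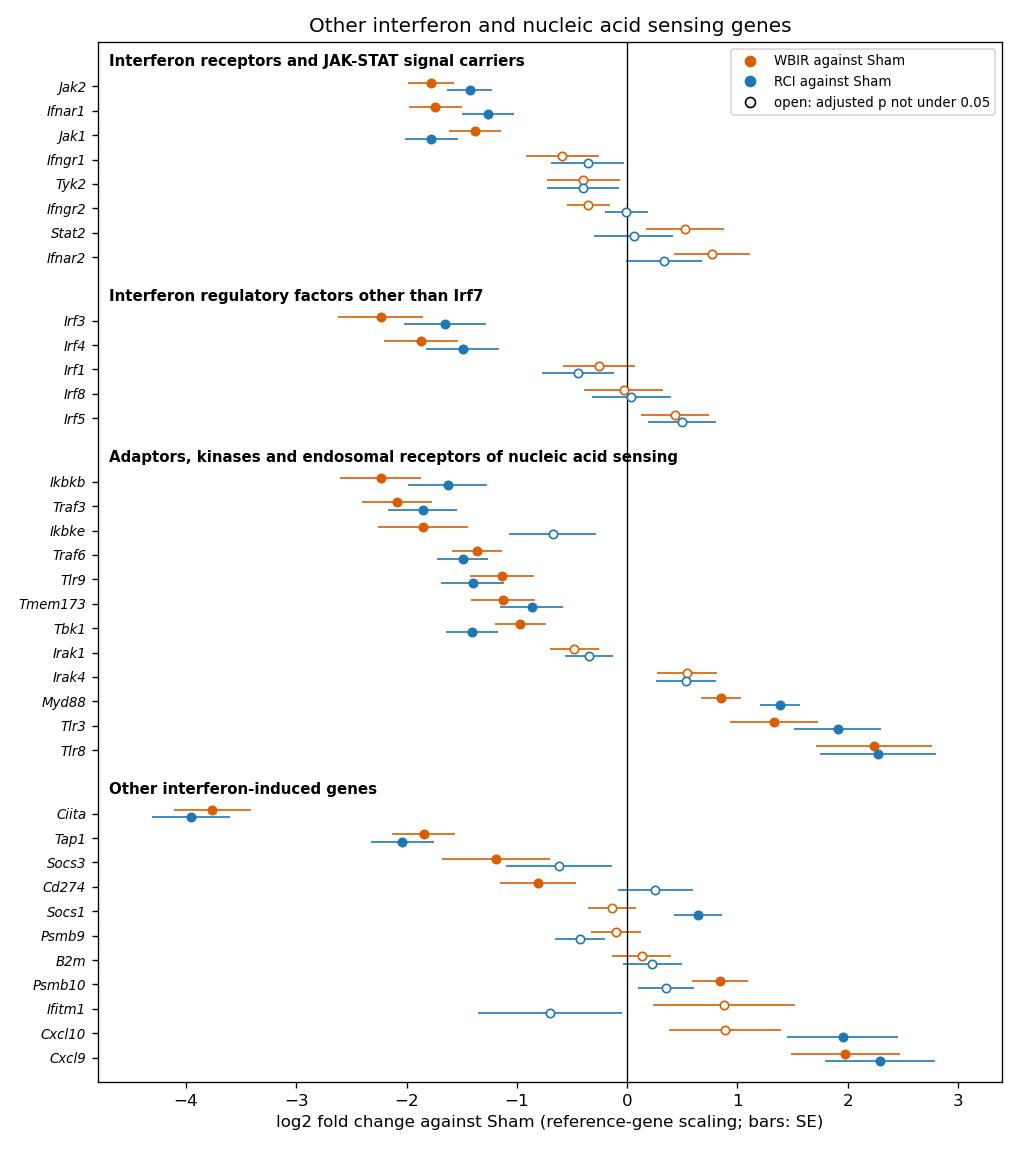
Log2 fold change of 36 other interferon and nucleic acid sensing genes in WBIR (orange) and RCI (blue) against Sham, with bars for the SE and filled points at an adjusted p under 0.05. Each of the 4 lists holds genes on both sides of 0, from *Ciita* at -3.96 to *Cxcl9* at 2.29 in RCI.

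Markers of spleen cell types moved with these changes. In WBIR and in RCI, 8 of 8 B cell and 13 of 13 T cell markers were lower, whereas 8 of 10 macrophage and monocyte markers were higher. Summed scaled counts of the macrophage and monocyte markers were 3251 to 6575 in Sham and 21010 to 44530 in the irradiated groups, and those of the T cell markers 12080 to 25850 and 2607 to 5658. Of 5 tested neutrophil markers 4 were lower in WBIR and 4 in RCI, and the summed level of the list was 7143 to 40420 in Sham and 1322 to 9182 in the irradiated groups. Of 6 NK and cytotoxic markers 1 was higher in WBIR, and 1 was higher and 2 lower in RCI, with sums of 905 to 3070 in Sham and 715 to 3114 in the irradiated groups. Of 3 tested dendritic cell markers 1 was higher and 1 lower in both, with sums of 589 to 877 and 543 to 737, and of 6 tested endothelial and stromal markers 2 were higher in WBIR and 4 in RCI, with sums of 2384 to 3001 and 2916 to 7027. The sums of the dendritic, endothelial and stromal, and neutrophil lists also include the untested markers *Xcr1*, *Pdgfrb* and *Ltf*, in that order. With TMM scaling the B and T cell counts were the same, 9 of 10 macrophage and monocyte markers were higher in WBIR and in RCI, and 3 neutrophil markers were lower in WBIR and 4 in RCI. Of the NK and cytotoxic markers 3 were then higher in WBIR, and 1 was higher and 2 lower in RCI. Of the dendritic cell markers 2 of 3 were higher in both, and of the endothelial and stromal markers 4 were higher in WBIR and 5 in RCI. None of these lists had a marker at 3 counts or fewer in every sample of a group. The part of cell makeup in the values of the 9 genes was not tested.

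The genes closest in profile to each of the 9 were found by the root mean square difference of log2 scaled counts, each gene centred on its own mean, over all 15 samples. *Irf7* and *Bst2* were each the nearest of the 9 genes to the other, at 0.252, and the nearest gene of the whole panel was *Tyrobp* for *Irf7*, at 0.216, and *Cd44* for *Bst2*, at 0.217. *Tyrobp* encodes a signalling adaptor of myeloid and NK cells. *Ifi204* was nearest to *Fcgr1*, the high-affinity IgG receptor gene of monocytes and macrophages, at 0.373, and *Ifih1* to *Litaf* at 0.237. *Ddx58* and *Irgm1* were nearest to each other among the 9 genes, at 0.174, with *Casp8* still nearer to *Ddx58*, at 0.143. *Ifit2* had none of the other panel genes nearer than *Irgm1*, at 0.346. Outside the 9 genes, the interferon regulatory factor gene *Irf1* was nearest to both *Ifit2*, at 0.396, and *Irgm1*, at 0.227. *Ifi35* was nearest to *Ube2l3*, at 0.143, and *Mx1* to *Cd226*, at 0.285, and for these 37 and 57 panel genes lay nearer than any of the other 8. The median distance to panel genes was between 0.782 and 2.03. This is a description over samples that share groups and scaling and carries no test.

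Treatment with MSC-EVs was compared with vehicle within each injury. Among WBIR mice, the treated against the untreated samples gave 0 of the 9 genes called by edgeR, DESeq2 or limma and 0 had an unadjusted p under 0.05 by any of them, beside 0.0% of all genes called and 2.58% with an unadjusted p under 0.05. The log2FC ranged from -0.32 for *Ifit2* to 0.01 for *Irf7*, and 8 of 9 were below 0. In RCI+MSC-EVs against RCI the counts were again 0 by all 3 tools, beside 0.0% called and 3.29% with an unadjusted p under 0.05 over all genes, and the log2FC ranged from -0.13 for *Ifit2* to 0.31 for *Mx1*. For 0 of the 9 genes did the treated and untreated samples separate in either injury, where 8.92% and 10.8% of all genes did. These tests do not show that the groups were alike, and the 95% intervals give what they leave room for.

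For *Ifi35* the interval of the MSC-EV difference was 0.753-fold to 1.23-fold in WBIR and 0.798-fold to 1.30-fold in RCI. For *Ifi204* it was 0.583-fold to 1.47-fold in WBIR and 0.635-fold to 1.60-fold in RCI, and for *Irf7* 0.616-fold to 1.64-fold and 0.639-fold to 1.70-fold. Over all 9 genes the intervals stayed between 0.385-fold and 2.06-fold in WBIR and between 0.440-fold and 2.55-fold in RCI. Averaged over both injuries, with 6 samples against 6, 0 of the 9 genes passed by edgeR, DESeq2 or limma at either an adjusted or an unadjusted p under 0.05 (0.0% and 3.29% of all genes by edgeR), and the intervals lay between 0.510-fold and 1.86-fold. The difference of the MSC-EV effects between the injuries likewise gave 0 of 9 by the 3 tools and at either threshold (0.0% and 2.58% of all genes by edgeR).

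**Figure D5:**
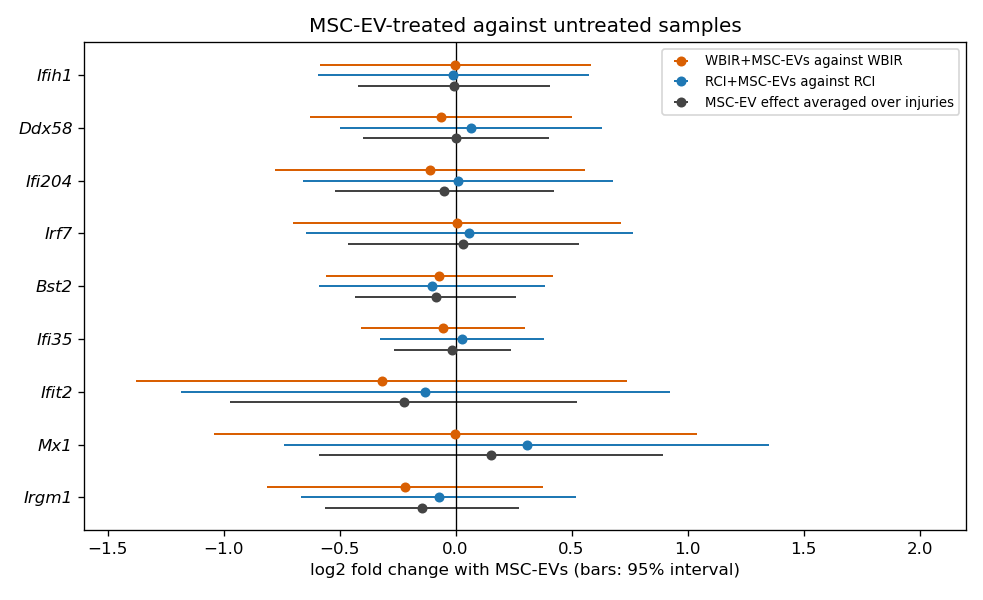
Log2 fold change of MSC-EV-treated against untreated samples for the 9 genes in WBIR (orange), in RCI (blue) and averaged over both (grey), with bars for the 95% interval. Every interval includes 0, and those of *Ifit2* and *Mx1* are the widest.

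The burn, together with the drugs and handling of its procedure, was examined as RCI against WBIR. Of the 9 genes 0 were called by edgeR, DESeq2 or limma and 0 had an unadjusted p under 0.05 by any of them, beside 0.704% of all genes called and 16.7% with an unadjusted p under 0.05 by edgeR. Of all 426 tested genes DESeq2 called 28 and limma 3. The log2FC ranged from -0.25 for *Mx1* to 0.23 for *Irf7*, with intervals between 0.407-fold and 1.92-fold, and 0 of the 9 genes separated the groups, where 27.0% of all genes did. With treated and untreated samples pooled, RCI groups against WBIR groups gave 0 of 9 by the same tools and at both thresholds (3.05% called and 25.8% with an unadjusted p under 0.05 over all genes by edgeR), from -0.20 ± 0.19 for *Ifih1* (adjusted p = 0.512) to 0.26 ± 0.22 for *Irf7* (adjusted p = 0.475). In this pooled comparison DESeq2 called 68 of all 426 tested genes and limma 14. With TMM scaling *Ifih1* was at -0.39 (adjusted p = 0.0714), and 1 of the 9 genes had an unadjusted p under 0.05 by edgeR, beside 104 of all 426 tested genes. *Socs1*, which encodes a feedback inhibitor of the JAK kinases, was the 1 gene of the pathway lists called there by edgeR with reference-gene scaling, at a log2FC of 0.77 ± 0.15 (adjusted p = 0.0185). With TMM scaling *Socs1* was at 0.60 (adjusted p = 0.0258) and 3 further genes were called lower, *Ifitm1* at -1.70 (adjusted p = 0.0363), *Tbk1* at -0.54 (adjusted p = 0.0261) and *Tap1* at -0.43 (adjusted p = 0.0443). These 4 genes were singled out here after their values were seen.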

How the data were processed

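RNA of spleen cells was hybridised to the nCounter Mouse Immunology Panel and the authors used nSolver to normalise and test it. The files deposited hold, for each gene and each of 15 samples, a raw count of barcodes, recognised by the values being whole numbers with totals of 90127 to 598872 per sample. None was below 1, and no background was subtracted here. Groups were taken from the sample labels. Counts were scaled to the geometric mean of 14 reference genes, and genes with a mean under 20 counts were left out (121 removed, 426 tested). The edgeR 4.0.16 quasi-likelihood test (R 4.3.3) used 1 coefficient per group, all 15 samples and 10 residual degrees of freedom. P-values were two-sided, with Benjamini-Hochberg adjustment over the 426 genes of each comparison and calls at an adjusted p under 0.05. The SE is the log2FC divided by the square root of F, and 95% intervals use the SE and 10 degrees of freedom. The spread between replicates beyond counting error was 33.1%, so with 3 samples per group it limits most genes more than depth does. The script was tested on simulated data. Alternatives were TMM, median-of-ratios, total-count and least-varying reference gene scaling, no filter, a filter at 50 counts, DESeq2 1.42.0, limma 3.58.1 on log2(scaled count + 10), the groups of a comparison alone, a replicate block, and each sample left out. The 9 genes and all lists were chosen with earlier results of these data known. All 9 genes are reported, and from each pathway list the 3 called genes with the largest absolute log2FC in WBIR or RCI against Sham are named, others being marked as singled out. One listed gene is not reported here. Promoters and gene types come from RefSeq tables of GRCm38.p6, where all 9 symbols matched.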

Additional observations from a re-analysis of the deposited data

How the results depend on the processing

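The rise of *Ifi204*, *Ifih1*, *Irf7*, *Bst2* and *Ifi35* was called in 500 of 500 fits (5 genes, 4 comparisons with Sham, 25 alternatives), with log2FC between 0.79 and 4.82 and adjusted p of at most 0.0187. These genes were picked because the main fit called them in all 4 comparisons. The fits reuse the same samples, and 300 of them leave out 1 sample, often from neither compared group. The count of fits is therefore no measure of independent support. The other 4 genes depend on the scaling. In WBIR against Sham, 8 of the 9 genes were called with TMM and 8 with median-of-ratios scaling, where reference-gene scaling called 5. The direction changed to a called rise for *Ddx58* in WBIR+MSC-EVs, at a log2FC of 0.56 with TMM and 0.58 with median-of-ratios scaling, for *Ddx58* in RCI, at 0.47 and 0.48, and for *Irgm1* in WBIR+MSC-EVs, at 0.51 and 0.53, all against Sham. Values called in neither fit changed sign in 177 of 2250 refitted values, 35 of them against Sham. The cause was not tested.

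Leaving out 1 sample at a time, 5 to 6 genes were called in each of the 4 comparisons with Sham and 0 in the others. *Mx1* in RCI against Sham was called in 13 of these 15 fits, from -1.65 to -0.48, and lost without Sham replicate 2 (-0.48) and without RCI replicate 3 (-0.98). Most of the 15 fits left out a sample of neither RCI nor Sham. In those the log2FC stayed at -1.304 to -1.305, so they hardly tested the call, and the count does not make it stable. Same-numbered samples had deviations that correlated between -0.494 and 0.677. Correlations between differently numbered samples were not computed, so this range cannot tell whether the numbers pair the samples. The main fit used no pairing. With the replicate block 6 genes were called in RCI against Sham, 5 in each of the other 3 irradiated groups against Sham and 0 in the MSC-EV and burn comparisons.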
